A study of Mus musculus with 13 samples.

Results

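The reads described here were the very short ones: every sequence of 14 to 18 nt in small RNA libraries of sorted mouse male germ cells. Members were chosen by length alone. They made up 16123166 of the 112743547 reads of the 9 biological samples, 14.3% of the total, and 2319146 distinct sequences. The cells came from C57BL6/J males of 3 to 4 weeks after birth and were sorted by fluorescence with the DNA dye Hoechst-33342. Stages were spermatogonia (SG, 1 library), leptotene/zygotene spermatocytes (LZ, 2 biological replicates), pachytene/diplotene spermatocytes (PD, 1 library; the stage is spelled diptotene in the labels) and round spermatids (RS, 1 library). A second set held SG and LZ cells only, with 2 biological replicates of each stage, and each was sequenced in a 50-bp and a 100-bp run, whose counts were summed. The 8 tables of that set carry a Pld6KO tag in their headers but no genotype label, and its groups are called tagged SG and tagged LZ below. No mutation is named in the labels of either set, and Pld6 itself is not measured by small RNA reads. Sense reads of 24 to 33 nt to L1Md, a LINE retrotransposon, were at 64.4 and 58.4 RPM in tagged SG and 108 and 87.0 in tagged LZ, against 1940 in SG and 817 and 1867 in LZ, but the tagged set cannot be told apart from its own runs and depth. Samples held 1810805 to 29956080 reads, tagged SG replicate 2 being the shallowest.

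Germ cells use PIWI proteins loaded with PIWI-interacting RNAs (piRNAs), most of which start with U, read as T in the sequences, to recognise transposon and other transcripts. Pld6 is a mitochondrial protein of the phospholipase D family that acts in the primary processing of piRNAs. A PIWI protein cuts a paired target opposite the bond between positions 10 and 11 of its guide, counted from 1 at the 5′ end. The upstream piece of the target therefore ends opposite position 11 of the guide, and fragments trimmed from it can be short. RNA of this size in a library also holds pieces of rRNA, snoRNA, tRNA and miRNA.

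The most read sequences were chosen as the 5 leading ones of each group, which formed 6 families of nested sequences. They are shown because the fragments of known RNAs on one side, and the sequences of unknown origin on the other, were read at different stages. Each is given whole, 5′ to 3′, with no base marked.
28S rRNA start: cgcgacctcagatcaga
5.8S rRNA end: gtctgagcgtcgct
18S rRNA start: tacctggttgatcctgcc
Across the 5.8S start: cgatacgactcttagc
B1 sequence: ctggctgtcctggaac
Late-stage sequence: tatcactggaacctgag
The 18S match covers bases 1 to 18 of the annotated transcript. The 28S and 5.8S names rest on textbook sequence, since the reference held no matching entry for them. The B1 name does too, and its sequence also matched bases 185 to 200 of the annotated noncoding RNA Gm25574, with 4 matches in sense and 12 in reverse over all such RNAs. B1 is a short interspersed repeat copied by retrotransposition, and its 16-nt sequence occurred in 1432 of 141767 annotated transcripts on the same strand and in 1255 on the other.

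A second set of sequences shows pairing between a 16-nt read and a longer read of the same sample. Capitals mark the 16 paired bases, which in the longer read run from position 11 to position 26.
16-nt read, PD: AAGGAAAACTGACTTG
Longer read, 29 nt: ttacttcagaCAAGTCAGTTTTCCTTacc
16-nt read, RS: TATGGATTGTCAACAT
Longer read, 29 nt: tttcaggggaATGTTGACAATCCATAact
16-nt read, B1: CTGGCTGTCCTGGAAC
Longer read, 26 nt: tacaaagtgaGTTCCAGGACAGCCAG
16-nt read, tagged LZ: CCTGGCTGTCCTGGAA
Longer read, 28 nt: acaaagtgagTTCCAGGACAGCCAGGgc

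A last pair, from PD, shows a short sequence that is the start of a longer read with U first, and capitals mark the shared start.
Short read, 15 nt: tgattgtggaagccc
Longer read, 29 nt: TGATTGTGGAAGCCCagagaggaggcacc

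Short reads were a small class in PD and RS and a large one before them. Their share of all reads was 16.1% in SG, 15.3% and 16.3% in the LZ replicates, 3.45% in PD and 4.24% in RS. The 95% Wilson interval was 3.44% to 3.46% in PD and 4.23% to 4.25% in RS, and it covers counting error only, because reads without molecular identifiers are not independent molecules. In the same libraries reads of 24 to 33 nt, the size of piRNAs, took 29.8%, 45.2% and 39.3%, 84.5% and 83.1%, in that order. PD and RS were the libraries with the fewest short reads and the most reads of piRNA size. As shares of 1 total, the classes are not independent, and with 1 library the stages SG, PD and RS have no replicate check.

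In the tagged set the share was 17.7% and 29.0% in SG and 18.1% and 24.4% in LZ. Tagged LZ and tagged SG overlapped, at 21.3% ± 4.40 and 23.3% ± 8.01 (SD, n = 2 each; two-sided exact permutation p = 1). Tagged LZ lay above LZ, whose mean was 15.8% ± 0.713 (SD, n = 2), without overlap, but 2 samples against 2 cannot give an exact p below 0.333, the value found. The 2 runs of a sample could differ as much as samples did. In tagged SG replicate 1 the share was 28.1% in the 50-bp run and 15.5% in the 100-bp run, and in tagged LZ replicate 1 it was 25.3% and 16.9%. Of these runs the 100-bp ones were near the untagged LZ samples and the 50-bp ones were not, although all untagged libraries came from 50-bp runs. The other tagged SG sample had 29.8% and 28.2%, and the other tagged LZ sample 23.98% and 24.5%. Each tagged 50-bp run thus lay above both LZ samples, which had the same run length.

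The length profile also differed by stage. In PD and RS the most frequent length was 16 nt, with 26.5% and 22.99% of the short reads, whereas it held 18.7% in SG and 18.9% and 18.3% in LZ. Counted once per distinct sequence, 16 nt held 24.25% in PD and 24.3% in RS, against 20.98% in SG, 20.9% and 21.8% in LZ and 19.6% to 20.8% in the tagged set. By that count it was also the leading length in SG, LZ replicate 2 and tagged LZ replicate 2. The tagged set had fewest reads at that length, 13.2% and 13.9% in SG and 15.4% and 15.7% in LZ, and its most read length was 17 nt, with 24.5% to 28.9%. Tagged LZ lay above tagged SG and below LZ at 16 nt, without overlap in either case (exact permutation p = 0.333 for both). The mean length stayed between 15.85 and 16.31 nt in all 9 samples.

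Fragments of rRNA led the short reads in each group. By the mean over replicates the 28S start was the most read sequence of all 6 groups, although in LZ replicate 2 the 5.8S end was read more. Its level was 6617 per 1000000 reads of the library (RPM) in SG, 6567 and 5582 in the LZ replicates, 665 in PD and 975 in RS. Tagged samples had more, 24054 and 28435 in SG and 17917 and 24354 in LZ. The sequence was lowest in PD and RS and highest in the tagged samples, which did not overlap with the others. The 5.8S end, cut from the last bases of that rRNA, was at 4443 RPM in SG, 3903 and 7996 in the LZ replicates, 291 in PD, 890 in RS, 2913 and 7266 in tagged SG and 1283 and 4028 in tagged LZ. Its levels overlapped between sets, so that the excess of the 28S start in the tagged samples did not extend to each rRNA end. The 18S start was at 182 RPM in SG, 229 and 207 in the LZ replicates, 26.3 in PD, 70.6 in RS, 3066 and 1754 in tagged SG and 2957 and 2141 in tagged LZ.

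The other leading families had different profiles. The sequence that runs across the 5.8S start, and so holds spacer and the first bases of 5.8S, was highest in LZ, with 2620 and 2066 RPM, against 1056 in SG, 112 in PD, 136 in RS and 604 to 1149 in the tagged samples. The B1 sequence was at 294 RPM in SG, 426 and 444 in the LZ replicates, 536 in PD and 298 in RS, and it was the second most read short sequence of PD. In tagged samples it was at 19.6 and 29.8 RPM in SG and at 118 and 349 in LZ, so that tagged LZ replicate 2 lay above SG and RS. The late-stage sequence was at 2.41 RPM in SG, 72.1 and 25.5 in the LZ replicates, 467 in PD and 438 in RS, and at 0 in the 4 tagged samples. It matched no annotated transcript or noncoding RNA. Together the 6 families took 17.4% of short reads in SG, 19.5% and 23.3% in the LZ replicates, 9.95% in PD, 13.2% in RS and 28.4% to 37.7% in the tagged set.

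Exact matches to the reference transcripts of noncoding RNAs, in their own orientation, accounted for 14.9% of the short reads in SG, 18.3% and 17.9% in the LZ replicates, 7.15% in PD and 6.16% in RS. Tagged SG had 8.74% and 7.53%, and tagged LZ 12.7% and 11.9%. Tagged LZ lay above tagged SG and below LZ without overlap, with an exact permutation p of 0.333 each. The reverse strand of the same transcripts gave 0.371% to 2.53%. The 28S rRNA and nuclear tRNAs were not analysed here, so pieces of them are missing from these shares. The shares also hold repeat matches, such as that of the B1 sequence inside Gm25574, so they are limits in neither direction.

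With 18S rRNA counted apart, the largest annotated class in SG, LZ and RS was snoRNA, the nucleolar RNAs that guide rRNA modification. In PD the mixed class of other short noncoding RNAs, with 2.43%, was slightly above snoRNA. Its reverse strand gave nearly as much in PD, 2.40%. The B1 sequence, which matches Gm25574 of that class, alone held 1.55% of the PD short reads. In RS the order depends on counting 18S apart, since the rRNA class held 1.06% and 18S rRNA 1.78%. The ranking also leaves out the rRNA families of cgcgacctcagatcaga and gtctgagcgtcgct, which had no matching reference entry. These families held 6.99% and 6.49% of short reads in SG and 3.82% and 5.12% in RS. The snoRNA class held 7.45% of short reads in SG, 10.6% and 10.1% in the LZ replicates, 2.27% in PD, 2.04% in RS, 4.78% and 3.85% in tagged SG and 6.82% and 6.49% in tagged LZ. Its reverse strand never passed 0.0138%, so nearly all these reads had the orientation of the snoRNA. Pieces of 18S rRNA, counted apart because the reference lists this transcript reversed, gave 1.06% to 2.72% in the untagged libraries and 4.26% to 6.93% in the tagged ones, without overlap. Reads that end in CCA, the tail added to every mature tRNA, made up 7.79% in SG, 4.92% and 6.44% in the LZ replicates, 1.97% in PD, 1.85% in RS and 2.52% to 3.57% in the tagged set. The share of CCA ends that arises by chance was not measured, so the low shares in PD and RS need not be tRNA pieces. One sequence that ends so, atcccacttctgacacca, was picked in SG, as its most read start outside annotated RNAs and leading families. It had 2308 RPM in SG, 1093 and 1032 in the LZ replicates, 25.3 in PD and 40.6 in RS. In tagged SG it had 451 and 1111 RPM, and in tagged LZ 193 and 667.

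Shortened miRNAs were a minor part. Short reads equal to the start of a mature miRNA were 1.82% of short reads in SG, 0.688% and 0.632% in the LZ replicates, 0.306% in PD, 0.2705% in RS, 0.363% and 0.498% in tagged SG and 0.907% and 1.199% in tagged LZ. In SG the most read of these were starts of miR-203-3p at 613 RPM and of let-7f-5p at 411 RPM. Starts of let-7f-5p, a member of the let-7 family tied to differentiation, reached 461 and 852 RPM in tagged LZ against 54.4 and 221 in tagged SG and 73.5 and 84.7 in LZ.

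The first base of the short reads shifted toward T in PD and RS. T came first in 27.5% of short reads in SG, 30.5% and 30.3% in the LZ replicates, 53.9% in PD and 52.1% in RS. In reads of 24 to 33 nt of the same libraries the share was 65.8%, 74.8% and 72.1%, 86.6% and 86.9%. The short reads thus had a smaller share of T than the longer ones in each library. Counted per distinct sequence, T came first in 33.98% in SG, 40.1% and 40.4% in the LZ replicates, 54.3% in PD and 55.2% in RS. At 16 nt T came first in 44.1% of the reads of PD, the lowest of the lengths, and in 44.8% of those of RS, where 14-nt reads had 44.0%. In 15-nt reads it did so in 62.5% and 64.1%.

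In the tagged set the first base was most often C, in 47.1% and 42.6% of SG and 42.6% and 44.3% of LZ short reads, and the 28S start begins with C. T came first in 20.5% and 19.5% of tagged SG and in 24.5% and 23.5% of tagged LZ short reads. The 2 groups did not overlap, and tagged LZ also lay below LZ (exact permutation p = 0.333 for both). Per distinct sequence the tagged samples were at 24.9% to 27.9%, near an equal share of the 4 bases.

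Most short reads equalled the start of a 24 to 33 nt read of the same library. The share was 61.3% in SG, 70.0% and 67.0% in the LZ replicates, 64.4% in PD, 63.2% in RS, 76.3% and 60.7% in tagged SG and 69.7% and 68.9% in tagged LZ. Tagged LZ, at 69.3% ± 0.532, overlapped with tagged SG at 68.5% ± 11.01 and with LZ at 68.5% ± 2.16 (SD, n = 2 each; exact permutation p = 1 for both). This measure depends on how many longer reads a library holds. With 267971 longer reads drawn from each sample, the number in the shallowest one, it became 44.0% in SG, 38.4% and 44.2% in the LZ replicates, 35.5% in PD, 36.8% in RS, 67.9% and 60.7% in tagged SG and 61.7% and 56.9% in tagged LZ. Tagged LZ then lay above LZ without overlap. A longer sequence read once was enough for a match. Among longer sequences read at least 2 times, the share was 49.6% in SG, 48.5% in tagged SG replicate 2 and 50.9% to 66.6% in the other samples.

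The start is not the only place where short reads match. Shares almost as high were found at the end of a 24 to 33 nt read, 57.8% in SG, 69.6% and 71.0% in the LZ replicates, 57.3% in PD and 56.5% in RS, and 64.9% to 78.6% in the tagged set. In LZ replicate 2 and in the 4 tagged samples the end share exceeded the start share. Short reads were also starts of 19 to 23 nt reads in 59.4% to 79.9%.

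Counted once per distinct sequence, the shares differed between the stages. Of the distinct short sequences, 19.5% in SG, 27.0% and 25.7% in the LZ replicates, 46.8% in PD and 42.5% in RS started a longer read. When the match began 1 base further into the longer read the shares were 12.95%, 18.02% and 16.2%, 29.3% and 23.9%. The start therefore exceeded the next position in each library, by the most in RS and PD. In the tagged set the starts were 23.6% and 17.1% in SG and 23.01% and 16.4% in LZ, against 16.8%, 12.3%, 16.7% and 11.3% 1 base further in. The shares over distinct sequences also depend on depth and were not computed with equal numbers of longer reads. By reads, PD and RS had the lowest start shares with equal numbers, 35.5% and 36.8%.

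In the untagged libraries, distinct short sequences that started a longer read began with T more often than the others. A start has by definition the first base of the longer read it matches, so its T share follows in part from the longer reads. T came first in 72.6% of these starts in PD and in 75.7% in RS, against 38.3% and 40.1% of distinct sequences that started none. In SG the values were 45.2% and 31.3%, and in LZ they were 57.5% and 33.7% in replicate 1 and 57.1% and 34.6% in replicate 2. The tagged samples had no such gap: T came first in 25.4%, 23.5%, 27.7% and 29.4% of the starts and in 27.9%, 25.1%, 27.8% and 27.6% of the others. Of all distinct longer reads of at least 26 nt, 75.6% in PD and 77.0% in RS began with T. SG had 70.5%, the LZ replicates 70.3% and 73.1%, and the tagged samples 26.9% to 35.0%. The example tgattgtggaagccc was at 157 RPM in PD and 238 RPM in RS, at 0.828 in SG and 24.1 and 10.2 in LZ, and at 0 in the tagged samples. It matched no annotated transcript.

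Sequences of 16 nt were the exception among the starts in PD and RS. Of the distinct 16-nt sequences 41.1% in PD and 35.9% in RS started a longer read, whereas the other lengths had 47.4% to 50.1% in PD and 43.6% to 46.6% in RS. In SG, LZ and the tagged set the 16-nt value lay within the range of the other lengths or close to it.

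Pairing with longer reads had a preferred position at this length. A short sequence was counted at a position when its reverse complement stood in a 24 to 33 nt read of the same sample from that position on, and positions 1 to 15 were examined. Among distinct 16-nt sequences, those pairing from position 11 made up 2.98% in SG, 2.93% and 5.04% in the LZ replicates, 6.12% in PD and 5.55% in RS. At position 10 the values were 2.32%, 2.24% and 3.46%, 3.12% and 2.38%, and at position 12 they were 1.96%, 1.97% and 3.09%, 2.89% and 2.19%. In the tagged set position 11 held 0.785% and 0.413% in SG and 2.30% and 2.86% in LZ, position 10 held 0.702%, 0.405%, 1.76% and 2.17%, and position 12 held 0.639%, 0.278%, 1.67% and 1.87%. Counted per distinct sequence, position 11 had the highest of the 15 values in each of the 9 samples, with a narrow margin in tagged SG. Counted by reads, it was the highest in PD, RS, tagged LZ and tagged SG replicate 1. In SG and LZ position 1 was, with 8.07% in SG and 14.4% and 14.01% in LZ against 5.81%, 7.64% and 9.44% from position 11. In tagged SG replicate 2, with 0.564%, position 11 was not the highest either. By reads, 18.2% of the 16-nt reads of PD and 12.6% of those of RS paired from position 11, against 11.6% and 6.69% from position 10 and 10.4% and 2.74% from position 12.

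Repeat sequences pair with many reads at many positions, so sequences that paired at 1 position alone were taken apart. In PD 503 of 2805 such 16-nt sequences used position 11, 17.9% (95% Wilson interval 16.6% to 19.4%), against 5.45% at position 10 and 5.74% at position 12. RS had 527 of 2545, 20.7% (19.2% to 22.3%). SG had 288 of 1984, 14.5% (13.03% to 16.1%). The LZ replicates had 726 of 5959, 12.2% (11.4% to 13.04%), and 670 of 3892, 17.2% (16.1% to 18.4%). These intervals, and those of the tagged set below, treat distinct sequences as independent draws from 1 sample. They do not measure the spread of a stage, and those of the LZ replicates did not overlap. No other position passed 8.42% in these 5 libraries. Weighted by reads, the share at position 11 was 30.1% in PD, 28.1% in RS and 9.59% in SG, but 7.06% and 4.43% in the LZ replicates. Sequences of 14, 15 and 18 nt used position 11 in 5.78% to 8.98% of cases in PD, RS, SG and LZ, and those of 17 nt in 7.86% to 12.4%, which was the nearest to the 16-nt value.

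The same position was used in tagged LZ. There 113 of 647 sequences, 17.5% (14.7% to 20.6%), and 316 of 1392, 22.7% (20.6% to 24.98%), paired from position 11 alone. Tagged SG had 34 of 365, 9.32% (6.74% to 12.7%), and 10 of 143, 6.99% (3.84% to 12.4%), and in its replicate 2 position 10 was used more often, by 11.2%. The means were 20.1% ± 3.70 in tagged LZ and 8.15% ± 1.64 in tagged SG (SD, n = 2 each), without overlap (exact permutation p = 0.333). LZ had 14.7% ± 3.56 (SD, n = 2), below both tagged LZ values without overlap (exact permutation p = 0.333).

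The longer reads on the other side of the pair began with T more often at position 11 than at either neighbouring position in all samples but tagged SG replicate 2. Of the distinct longer reads that paired from position 11 with a 16-nt sequence, 82.3% in PD and 83.6% in RS began with T, against 66.7% and 68.7% of those paired from position 10 and 69.4% and 73.1% of those from position 12. Among all longer reads of at least 26 nt the share was 75.6% and 77.0%, below that of the partners. In SG and LZ it was 70.5%, 70.3% and 73.1%, slightly above that of the partners. Partners in SG had 69.3%, against 52.3% and 59.9% at the neighbouring positions, and in LZ they had 68.1% against 53.9% and 57.3% in replicate 1 and 69.6% against 58.1% and 58.6% in replicate 2. Tagged LZ had 49.1% against 36.6% and 45.2%, and 50.1% against 39.2% and 44.9%. Tagged SG had 43.8% against 26.5% and 37.7% in replicate 1, but 26.6% against 21.2% and 45.1% in replicate 2, the shallowest sample. All longer reads of that length had 32.9% and 35.0% in tagged LZ and 29.0% and 26.9% in tagged SG. In reads, partners at position 11 numbered 235661 in PD and 258846 in RS, and no more than 25460 at either neighbour.

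The 16-nt sequences themselves were not rich in T. Those that paired from position 11 began with T in 32.4% in PD and 32.7% in RS, whereas the other 16-nt sequences did so in 51.1% and 51.8%. In SG the values were 33.8% and 34.2%, and in LZ they were 32.4% and 39.9% in replicate 1 and 32.6% and 39.8% in replicate 2. They were also less often the start of a longer read in PD, 28.1% against 41.9%, and in RS, 16.1% against 37.1%, while in SG they were more often one, 54.0% against 18.2%. LZ went the same way as SG, with 51.9% against 25.5% and 49.5% against 23.8%, as did tagged SG, with 47.4% against 23.6% and 35.7% against 17.01%, and tagged LZ, with 36.2% against 22.7% and 31.3% against 15.6%. In PD and RS the sequences with a partner at position 11 and the sequences that start piRNA-sized reads were thus largely different ones.

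Single pairs were picked from the most read pairing sequences of a group, so a high level in that group follows from the choice. In PD and RS the B1 sequence was the most read of these, and the sequences shown for these stages came next. The PD sequence AAGGAAAACTGACTTG was at 41.8 RPM in PD, 12.997 in RS, 27.2 and 26.6 in LZ and 2.18 in SG, and at 0 in the tagged samples. TATGGATTGTCAACAT was at 49.4 RPM in RS and 8.80 in PD. The partner shown above had 7 reads for the PD sequence and 8 for the RS sequence. Both 16-nt sequences were found in few annotated transcripts, the first in 0 on the same strand and 2 on the other, the second in 1 and 3. Another pairing sequence, AAGTAGACCAATGGAA, was at 38.0 RPM in PD and 39.95 in RS, but only at 0.376 in SG and at 3.64 and 7.39 in LZ, and it had 0 reads in the tagged set. It occurred in 36 transcripts on the same strand and 17 on the other. The B1 sequence CTGGCTGTCCTGGAAC was read at every stage, and its SG partner shown above, 26 nt long, had 690 reads and was 1 of 581 partners. A pair that few transcripts hold and a pair that occurs in 1432 of them were thus both found from position 11.

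Sequence by sequence, tagged LZ was compared with tagged SG, the only pair of stages with replicates on both sides. The fit used edgeR's quasi-likelihood test with Benjamini-Hochberg adjustment over all 47293 sequences of 14 to 48 nt that passed a minimum of 10 reads in 2 of the 4 samples. Of the short sequences 10708 passed that filter. At an adjusted p under 0.05, 181 were higher in tagged LZ, 1.69% of those tested, and 36 were lower, 0.336%. Over all lengths 1410 were higher, 2.98%, and 88 lower, 0.186%. Reads of 19 to 23 nt had 2.33% higher and 0.238% lower, and those of 24 to 33 nt had 6.21% and 0.0862%. Without TMM scaling the short calls were 28 higher and 1 lower. They also rested on single samples: without tagged LZ replicate 2 the counts were 2 and 0, without tagged SG replicate 1 they were 0 and 12, without tagged SG replicate 2 they were 105 and 1, and without tagged LZ replicate 1 they were 158 and 9. Labels do not say that the replicates came from separate animals, so the p-values measure the spread between these samples.

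The calls were unevenly spread over length. Higher in tagged LZ were 87 of 2129 sequences of 16 nt, 4.09%, against 29 of 2106 (1.38%) at 14 nt, 19 of 2062 (0.921%) at 15 nt, 32 of 2191 (1.46%) at 17 nt and 14 of 2220 (0.631%) at 18 nt. Of the 16-nt sequences that paired from position 11, 64 of 111 were higher and 0 lower, and of the 2018 others 23 were higher and 6 lower. Pairing was scored with longer reads of the same samples, so a sequence absent from tagged SG could be scored through tagged LZ alone. Sense B1 reads of 24 to 33 nt were at 8018 and 8888 RPM in tagged LZ, against 1187 and 911 in tagged SG. Sequences shifted against each other by 1 base count separately. How far pairing depends on the level in tagged LZ was not tested. A sequence that paired at several positions counts at each, and most of the 111 did, so that 56 of 104 were higher at position 10, 61 of 104 at position 12 and 45 of 80 at position 1. Tested sequences that paired at another position but not from position 11 were few: 0 of 11 were higher at position 10, 1 of 10 at position 12 and 1 of 11 at position 1. Among all 181, 127 were starts of a longer read, as were 8050 of the 10708 tested, and 52 lay in an annotated noncoding RNA, as did 1964 of those tested. Of the 181, 33 had 0 reads in both tagged SG samples and so passed the filter on reads through tagged LZ alone. Any other call with fewer than 10 reads in both tagged SG samples did so too, and these are not in the 33.

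The 4 families of nested sequences whose most changed form had the largest log2 change were taken in each direction, and the most read form of each is shown. Its own change can be smaller than that of other calls. One is a form of the leading B1 sequence and others share most of their bases. Whether further ones come from B1 was not looked up in a reference. No base is marked.
Higher, 17 nt: ccgtctgacatgaactt
Higher, 16 nt, pairs from position 11: cctggctgtcctggaa
Higher, 16 nt: ccgtctgacatgaaaa
Higher, 16 nt, pairs from position 11: tctgcctcccaagtgt
Lower, 18 nt: ggcggagtcggaacattt
Lower, 14 nt: aggctgagacagga
Lower, 15 nt: tgaactatgcctggg
Lower, 16 nt: atttttggagcaggga
The sequence ccgtctgacatgaactt had 1 and 0 reads in tagged SG and 41 and 277 in tagged LZ, a log2 change of 7.26 ± 1.30 (SE; edgeR adjusted p = 0.000891). It was also read in LZ, at 3.405 and 6.19 RPM, and less in SG, at 0.226. The B1 form cctggctgtcctggaa, shifted by 1 base against the leading B1 sequence, had 22.5 and 37.0 RPM in tagged SG and 216 and 704 in tagged LZ, a log2 change of 4.08 ± 0.857 (edgeR adjusted p = 0.00284). In the untagged libraries it was at 8.13 to 30.9 RPM, and 9 nested forms of it passed the test.

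The third, ccgtctgacatgaaaa, had 2 and 0 against 16 and 180 reads, a log2 change of 5.71 (edgeR adjusted p = 0.00309). The fourth, tctgcctcccaagtgt, had 0 reads in both tagged SG samples and 25 and 86 reads in tagged LZ, at least 20.1-fold higher when tagged SG is set at 3 reads over the group (edgeR adjusted p = 0.00267). It occurred in 45 annotated transcripts on the same strand and in 23 on the other. In the opposite direction, ggcggagtcggaacattt had 10 reads in each tagged SG sample and 0 in tagged LZ, at least 12.3-fold lower on the same footing (edgeR adjusted p = 0.00307). The other lower ones were aggctgagacagga, with 26 and 51 against 8 and 10 reads and a log2 change of -3.87 (edgeR adjusted p = 0.00959), atttttggagcaggga, with 35 and 52 against 11 and 11 reads and -3.65 (0.0126), and tgaactatgcctggg, with 72 and 96 against 45 and 30 reads and -2.80 (0.0432). Of the higher ones, ccgtctgacatgaactt, ccgtctgacatgaaaa and tctgcctcccaagtgt passed the filter on reads through tagged LZ alone. The lower ggcggagtcggaacattt passed it through tagged SG alone. For these the direction follows in part from the filter. The rule took only sequences whose groups do not overlap. All 8 lost the call when tagged LZ replicate 2 was left out, and 3 of the 4 lower ones lost it without TMM scaling.

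Markers of other cells moved with some of these comparisons. Of 16 marker miRNAs, 13 had a reference sequence. Those of meiotic and later germ cells, miR-34b-5p and miR-449a-5p, summed to 5.95 RPM in SG, 27.5 and 41.4 in the LZ replicates, 105 in PD and 200 in RS, and to 6.61 and 1.66 in tagged SG and 16.6 and 15.1 in tagged LZ, an order that follows the stage labels. The spermatogonial list of 5 summed to 545 RPM in SG but to 115 and 590 in LZ, so it did not separate these stages, and it was 90.8 to 96.2 RPM in RS and PD, 278 to 609 in tagged SG and 912 to 1032 in tagged LZ. The gonadal somatic miRNA miR-202-5p was at 7820 and 4269 RPM in tagged LZ, 509 and 457 in tagged SG, 15.8 and 38.0 in LZ, 208 in SG, 0.677 in PD and 1.28 in RS. The endothelial miR-126a-3p was at 868 and 1229 RPM in tagged LZ, 597 and 860 in tagged SG, 204 in SG, 58.4 and 136 in LZ and 3.76 to 4.39 in PD and RS. The red blood cell pair was at 12.2 to 25.2 RPM in the tagged samples, 11.9 in SG and no more than 0.200 in LZ, PD and RS, and the white blood cell pair at 9.39 to 17.3 in the tagged samples and at most 3.44 in the others. Their part in the differences between tagged LZ, tagged SG and LZ was not tested.

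In the repeat tables, where the shortest class runs from 11 to 18 nt and allows 2 mismatches to a consensus, B1 was covered mainly in antisense. Antisense B1 reads were at 2703 RPM in SG, 1591 and 1899 in the LZ replicates, 1010 in PD and 609 in RS, and the sense strand was at 559, 732 and 730, 120 and 58.3. In the tagged set antisense B1 was at 493 and 668 RPM in SG and at 1657 and 3737 in LZ, where the sense strand was at 460 and 877 in SG and 818 and 1115 in LZ. Antisense lay above sense in each sample but tagged SG replicate 2, by little in tagged SG replicate 1. These RPM values are means of the 2 runs of a tagged sample. The class also holds reads of 11 to 13 nt, and reads that matched several repeats equally were divided among them in the study's methods, which give this for 24 to 33 nt reads. For IAP, an endogenous retrovirus, the antisense level at 11 to 18 nt was 4996 RPM in SG, 4190 and 5579 in LZ, 1951 in PD, 2188 in RS, 4397 and 8287 in tagged SG and 4384 and 5731 in tagged LZ, so it overlapped between the sets. The runs of tagged SG replicate 1 spread from 2058 to 6737 RPM. Antisense IAP reads of 24 to 33 nt were at 200 and 96.1 RPM in tagged SG and at 925 and 781 in tagged LZ. The untagged libraries ran from 2363 RPM (RS) to 6816 RPM (PD), so this longer class did not overlap between the sets. How many of the 11 to 18 nt matches arise by chance, with 2 mismatches allowed, was not tested.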

How the data were processed

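Small RNA (acid phenol extraction, TruSeq Small RNA kit) was measured in 9 biological samples of sorted germ cells, in 13 libraries. The authors trimmed adapters (cutadapt, per the labels) and deposited, for each library, the read count of every distinct sequence. These tables still hold rRNA reads, and no genome was used here. The authors also deposited tables of repeat consensus matches in RPM, by length class and strand. Counts of technical replicates were summed. Depth was 1810805 to 29956080 reads a sample. Shares of reads, Wilson intervals (95%) and exact matches to RefSeq miRNAs and GENCODE noncoding transcripts were computed in Python 3.11.15. Groups of 2 were compared by a two-sided exact permutation test, smallest p 0.333, and sequences by edgeR 4.0.16 (TMM, quasi-likelihood, R 4.3.3) with DESeq2 1.42.0 as an alternative. Library size was the deposited total, and the fits were tested on simulated counts. Replicates differed by more than sampling noise, with chi-square per degree of freedom from 10.6 to 14.8 between biological and from 5.23 to 15.6 between technical replicates. Named sequences were the 5 most read of each group, and, among calls at an adjusted p of 0.05 whose values do not overlap, the 4 families of nested sequences with the largest log2 change of any form in each direction, shown as their most read form. RPM values of the repeat tables were averaged over the 2 runs of a sample, not summed. The pairs shown were taken from the most read 16-nt sequences of each group that pair from position 11, with the most read partner. Members and lists were chosen with earlier results of these data known. Some alternatives and measures were added after seeing the data: without the leading families, 18S in its own orientation, position 11 minus its neighbours, and the single-position share. Sequence names from 28S rRNA and repeats were not looked up in a reference here.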

Additional observations from a re-analysis of the deposited data

How the results depend on the processing

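The difference between tagged LZ and tagged SG in the share of short reads was -2.08 percentage points and became 0.0934 over distinct sequences. PD minus LZ, -12.3, was -5.88 over distinct sequences, -15.7 of the 14 to 33 nt reads, -9.94 without the 10 most read sequences and -9.69 without the leading families. For mean length, tagged LZ minus tagged SG was -0.0129 nt, and 0.0223, 0.00999 and 0.0371 over distinct sequences, without the 10 most read and without the leading families. Tagged LZ minus LZ was -0.0115 and PD minus LZ 0.137 over distinct sequences. For T first, PD minus LZ was 14.1 over distinct sequences, 21.8 without the 10 most read, 19.9 at 15 to 17 nt, 25.95 without annotated RNAs and 22.4 without the leading families.

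For starts of longer reads, tagged LZ minus tagged SG (0.791) turned to -5.07 with equal numbers of longer reads, -2.35 with the longer reads of LZ replicate 1, -0.660 over distinct sequences and -1.48 in the 50-bp run. Tagged LZ minus LZ (0.786) turned to -1.85 with the reads of LZ replicate 1, -6.63 over distinct sequences, -2.87 without the 10 most read, -3.82 without the leading families and -11.9 in the 50-bp run. PD minus LZ was -0.772, 20.4, -0.460 and 0.592 under the first 4 of these, and -6.40 at 16 to 18 nt. For annotated RNAs, PD minus LZ was 1.12 on the reverse strand, -13.1 at 18 nt and -12.3 with 18S in its own orientation. For pairing from position 11, with equal numbers of longer reads, tagged LZ minus LZ turned from negative to 0.163. PD minus LZ was then 1.38, and it was 0.739 over distinct sequences. For 16 nt against the neighbouring positions, tagged LZ minus LZ also turned from negative, to 0.0770, with equal numbers. PD minus LZ was 0.626 with equal numbers and 5.34 by reads. For sequences that pair at a single position, PD minus LZ was 24.4 by reads, since by reads PD rose to 30.1% and LZ fell to 7.06% and 4.43%. The causes were not tested.

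Of short sequences called higher and lower in tagged LZ, 319 and 151 were found with the replicate block, 28 and 1 without TMM, 34 and 14 in the 50-bp run, 80 and 12 with DESeq2. Lower ones were 19 in the 100-bp run, 13 at a minimum of 5 reads and 4 with no filter. The block had 211 of the 217 calls, but the numbers only name samples (correlation of same-numbered deviations 0.164 over the short sequences, 0.390 over all), and it gave no exact p below 0.5.

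Leaving out each replicate in turn gave ranges as follows. Share of short reads: -7.74 to 3.59 (tagged LZ minus tagged SG), 2.39 to 8.61 (tagged LZ minus LZ), -12.8 to -11.8 (PD minus LZ). Mean length: -0.155 to 0.129, 0.127 to 0.383, 0.194 to 0.284. T first: 3.53 to 4.51, -6.88 to -5.90, 23.4 to 23.6. Starts of longer reads: -6.99 to 8.58, -0.739 to 2.31, -5.67 to -2.62. Annotated RNAs: 3.58 to 4.79, -6.18 to -5.42, -11.2 to -10.8. Pairing from position 11: 1.06 to 1.94, -2.08 to -1.19, 2.84 to 3.21. At 16 nt against neighbours: 0.488 to 0.746, -1.05 to -0.123, 1.36 to 2.28. Single-position share: 9.31 to 14.5, 2.77 to 8.002, 0.717 to 5.75. Calls: 0 to 158 higher, 0 to 12 lower. With 1 library each, SG, PD and RS have no error, and shares at 16 nt in tagged SG rest on 143 and 365 sequences.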
